A study of Homo sapiens with 6 samples.

Results

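Replication-dependent histone genes encode the linker histone H1 and the core histones H2A, H2B, H3 and H4 that package newly replicated DNA. They were taken here as every gene whose current symbol begins with H1- and a digit from 1 to 6, or with H2AC, H2BC, H3C or H4C and a digit. The annotation held 84 such symbols, and 71 of them had values, among 26972 named genes in all. The other 13 were not analysed here. The 71 were 6 H1, 18 H2A, 19 H2B, 13 H3 and 15 H4 genes, of which 69 are annotated as protein-coding and 2, H2AC2P and H2BC20P, as pseudogenes. The annotation placed 56 of them on chromosome 6, 14 on chromosome 1 and H4C16 alone on chromosome 12.

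These genes are known for being transcribed in bulk during S phase, from clustered copies without introns, by a nuclear body organized around NPAT. Their mRNAs usually end in a short stem-loop in place of a poly(A) tail. The stem-loop is bound by SLBP, and the U7 small nuclear RNA guides the cut just after it. Some of the genes are also known to give longer, polyadenylated transcripts in cells that have stopped dividing.

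RNA-seq was done on UWB1.289, an established human ovarian carcinoma line with mutated BRCA1. One group, shHBO1, had 3 libraries of cells given a lentiviral short hairpin RNA against HBO1, the histone acetyltransferase encoded by KAT7 that acetylates histones H3 and H4. The other, shCTRL, had 3 libraries of cells given a control hairpin. Both groups were transduced with 10 µg/mL polybrene and, after 96 h, selected in puromycin raised between 1 and 3 µg/mL, so that the cells measured in either group had survived transduction and selection. The sources used here do not give the number of hairpins, the time of harvest, the RNA selection or the strandedness, nor whether the libraries came from separate cultures. What the p-values measure is then the variation among 6 libraries, part or all of which may be technical.

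The libraries held 39716678, 37209917 and 37521281 reads in shHBO1 and 36081229, 39908703 and 35940400 reads in shCTRL. KAT7 was at 1008, 872 and 784 normalized counts in shHBO1 libraries, against 3616, 3952 and 3554 in shCTRL libraries, or 888 ± 113 against 3707 ± 214 (SD, n = 3 each). That is 23.9% of the shCTRL mean and a log2 fold change of -2.07 (SE 0.11; limma adjusted p = 0.00123; an exact permutation test of 3 against 3 cannot go below 0.1 and gave 0.1). Of 12 epithelial and Mullerian markers, 10 averaged at least 100 normalized counts, and WT1 and FOLR1 did not. Of 10 markers of leukocytes, endothelium, fibroblasts and red cells, only CD68 and COL1A1 did, and HBB was at 0; their summed counts ran from 1319 to 1541 in shHBO1 and from 1030 to 1440 in shCTRL libraries. In samples of many cells, fewer cells in S phase and less histone mRNA per cell cannot be told apart.

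The sequence that sets these mRNAs apart is the stem-loop near their 3′ end, and 6 of them are shown because these genes carry much of the counts or the comparisons below. They were read from GENCODE release 29 transcripts (GRCh38), with the 16-base stem-loop in capitals and 5 bases on either side.
H2AC25: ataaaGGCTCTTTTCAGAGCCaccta
H2BC21: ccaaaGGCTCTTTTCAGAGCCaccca
H2BC5: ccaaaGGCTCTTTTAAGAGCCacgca
H3C8: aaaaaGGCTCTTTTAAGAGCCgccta
H4C11: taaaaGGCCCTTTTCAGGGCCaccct
H4C14: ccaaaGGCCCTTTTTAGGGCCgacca

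The genes above share 4 of the 5 forms of the stem-loop. The letters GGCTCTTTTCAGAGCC stood in 15 genes of the H2A, H2B and H3 classes, and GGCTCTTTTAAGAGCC in H2BC4, H2BC5, H2BC7 and H3C8. The form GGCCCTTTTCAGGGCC stood in 5 genes, all H4, and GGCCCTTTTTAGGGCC in H4C9, H4C14 and H4C15. The remaining form, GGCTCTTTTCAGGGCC, stood in H2AC11 and H2BC20P. The search pattern was GGNNNTTTTNAGNNCC on the transcript strand. It was found in 29 of the 67 genes with a GENCODE transcript, against 112 of 19702 protein-coding genes (0.568%). No match, as for H2BC12 and all 6 H1 genes, says only that these letters are not in the transcript model used, and many such models hold the coding sequence alone. In 23 of the 29, the annotated transcript ran on for at least 100 bases past the stem-loop, as in H2BC21 with 1729 bases and H2AC25 with 390, and these 23 genes held 33.4% of all histone counts.

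The promoter windows, from 250 bases before to 50 bases after the start, were available for 64 of the 71 genes from RefSeq (GRCh38.p14). On either strand, CCAAT was found in 54 of 64 (84.4%), TATAAA in 42 of 64 (65.6%) and the octamer ATTTGCAT in 26 of 64 (40.6%). Over all 27305 promoter windows of the same length, the shares were 35.7%, 11.95% and 1.80%. The octamer is the site of POU2F1, also called OCT1, and stood in 14 of 18 H2B and 11 of 16 H2A windows, 1 of 11 H3 windows and no H1 or H4 window. CCAAT stood in every H1, H2A, H2B and H3 window and in 3 of 13 H4 windows. A match is a description of letters and not of a bound site. The windows of H2BC12 and H2AC25, the genes with the largest share of H2B and of H2A counts, are printed with every match to the 3 motifs in capitals. H2BC12 holds all 3 motifs, and its run TTTATAAA holds TATAAA on both strands, overlapping. H2AC25 holds only CCAAT. H2BC12 lies at chr6:27146809-27147108 on the minus strand, and H2AC25 at chr1:228457824-228458123 on the minus strand.
H2BC12: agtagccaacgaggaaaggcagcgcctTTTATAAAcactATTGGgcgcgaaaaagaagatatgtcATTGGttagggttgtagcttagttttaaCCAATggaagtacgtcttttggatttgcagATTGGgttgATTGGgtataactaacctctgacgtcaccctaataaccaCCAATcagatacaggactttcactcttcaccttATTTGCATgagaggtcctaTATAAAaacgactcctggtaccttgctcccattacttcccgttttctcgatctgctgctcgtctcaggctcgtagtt
H2AC25: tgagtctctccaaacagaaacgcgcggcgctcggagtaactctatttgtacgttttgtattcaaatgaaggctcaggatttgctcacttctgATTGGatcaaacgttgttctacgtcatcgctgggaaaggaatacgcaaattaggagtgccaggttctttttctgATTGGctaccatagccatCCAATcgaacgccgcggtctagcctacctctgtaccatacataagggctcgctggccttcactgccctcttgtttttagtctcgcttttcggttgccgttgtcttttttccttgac

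All 71 genes together were at 3249, 3010.1 and 2784 normalized counts in shHBO1 libraries, against 3069, 3259 and 2618 in shCTRL libraries. The means were 3014 ± 233 and 2982 ± 330 (SD, n = 3 each), a ratio of 1.01, and the groups overlapped. A normalized count here is the number of reads scaled by one factor per library and not divided by gene length, so shares below are shares of counts and not of mRNA molecules. As reads per 1000000 reads of a library, the sum came to between 69.4 and 87.5. Most of it lay in few genes: H2BC12 alone held 39.6% of it, and H2BC12, H2BC21, H2AC25, H1-2 and H2BC5 together held 61.9%. Those 5 were the only ones that averaged at least 100 counts. A further 27 genes were above 0 in some library but averaged under 10, and 6, namely H1-6, H2AC1, H2AC2P, H2BC1, H4C6 and H4C7, were at 0 in every library, which at 3 reads per library allows up to 0.0752 to 0.0835 reads per 1000000. Such limits cover counting error only.

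Of the 38 genes that averaged at least 10 counts and were tested, 0 were higher and 0 were lower in shHBO1 at an adjusted p under 0.05 (limma-trend on log2(normalized count + 1) over 15175 genes). Over all tested genes, 0% were called higher and 0.00659% were called lower, that is KAT7 alone. With the replicate number as a block, again 0 of 38 were called in either direction, against 0.0395% of all genes higher and 0.0857% lower. At an unadjusted p under 0.05 there was 1 histone gene, against 3.55% of all genes, and with the block there were 2, against 11.3% of all genes. On the recovered reads, edgeR called 0 of the 38, against 0.00659% of all genes, or 0.125% with the block, and DESeq2 called 0, against 0.125% of all genes, or 0.975% with the block. In each of these fits so few genes were called at all that 0 of 38 is near the background. Estimates were above 0 for 20 genes and below 0 for 18, with a median log2 fold change of 0.04, beside 0.00016 over all tested genes. The estimates ran from -1.51 for H3C13 to 1.52 for H4C12, and the tested histone genes had a median of 21.1 normalized counts, so most single-gene intervals are wide.

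**Figure D1:**
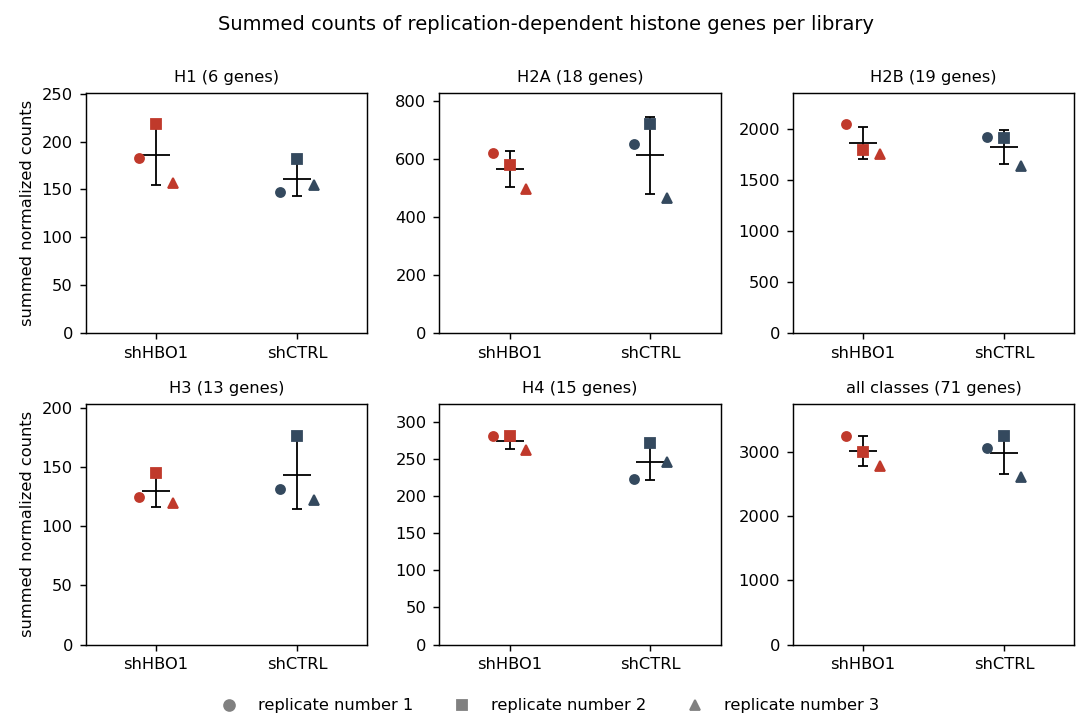
Summed normalized counts per library (y axis, from 0) for each histone class and for all 71 genes, with shHBO1 on the left and shCTRL on the right of each panel. Points are libraries, with a shape for each replicate number, the long bar is the mean and the whiskers are 1 SD (n = 3). The groups overlap in every panel, and the number 3 libraries lie lowest in both groups in the panels of H2A, H2B, H3 and all classes.

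Linker histone H1 binds the DNA between nucleosomes. Its genes summed to 183, 218 and 156 normalized counts in shHBO1 libraries, against 147, 182 and 154 in shCTRL libraries, or 186 ± 30.9 against 161 ± 18.2 (SD, n = 3 each). The ratio was 1.154, and within replicate numbers 1, 2 and 3 it was 1.24, 1.199 and 1.01. H1-2, which held 79.5% of the class, was at 155, 167 and 123 counts in shHBO1 against 119.8, 144 and 119 in shCTRL. The 2 upper shHBO1 values lay above all shCTRL values and the third lay among them, with a log2 fold change of 0.21 (SE 0.19, 95% confidence interval -0.22 to 0.64). H1-3 was at 14.02, 19.3 and 11.6 counts in shHBO1 against 7.11, 8.43 and 14.7 in shCTRL. H1-4 was at 10.3, 19.3 and 10.6 counts in shHBO1 against 10.2, 10.3 and 7.34 in shCTRL. H1-5 was at 2.80, 11.2 and 11.6 counts in shHBO1 against 10.2, 15.0 and 12.6 in shCTRL. All 3 overlapped between the groups, with log2 fold changes of 0.56 for H1-3 (SE 0.43), 0.45 for H1-4 (SE 0.42) and -0.68 for H1-5 (SE 0.56). H1-1 averaged under 10 counts and the testis gene H1-6 was at 0.

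Histone H2A pairs with H2B in the nucleosome. The 18 H2A genes summed to 619, 579 and 497 normalized counts in shHBO1 libraries, against 652, 718 and 464 in shCTRL libraries, or 565 ± 62.1 against 611 ± 132 (SD, n = 3 each). The ratio was 0.924, and within replicate numbers it was 0.949, 0.807 and 1.07, so its direction differed between the pairs. H2AC25, with 30.0% of the class, was at 187, 163 and 89.7 counts in shHBO1 against 267, 272 and 80.8 in shCTRL. Its lowest library in each group was number 3, and it was the only tested histone gene in which the replicate numbers differed at an adjusted p under 0.05 (limma with the block; log2 difference of number 3 minus number 1 of -1.38, adjusted p = 0.0167), against 9.7% of all genes. Between shHBO1 and shCTRL its estimate was -0.37 in log2 fold change, with an SE of 0.49 and an interval of -1.51 to 0.78 without the block. With the block the SE was 0.19 and the limma adjusted p was 0.520. Without H2AC25, the log2 ratio of the H2A sums was 0.05, against -0.11 with it, an alternative chosen after seeing the data.

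H2AC6 was at 115, 96.7 and 124 counts in shHBO1 against 67.0, 86.2 and 105 in shCTRL. It was higher in shHBO1 within each replicate number and the groups overlapped. The estimate was 0.39 in log2 fold change, with an SE of 0.22 and an interval of -0.13 to 0.91. H2AC18 and H2AC19 had the same values in all 6 libraries, 80.4, 70.3 and 88.8 counts in shHBO1 against 78.2, 87.1 and 74.5 in shCTRL. Their values cannot be told apart, with a log2 fold change of -0.01 (SE 0.20). The other 4 tested H2A genes, H2AC8, H2AC11, H2AC17 and H2AC20, ran from -0.38 to 0.53 in log2 fold change, and none passed the test.

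The 19 H2B genes held most of the counts, at 2041, 1787 and 1749.5 in shHBO1 libraries, against 1916, 1911 and 1632 in shCTRL libraries. The means were 1859 ± 158 and 1820 ± 163 (SD, n = 3 each), a ratio of 1.02, and within replicate numbers the ratios were 1.07, 0.935 and 1.07. H2BC12, with 64.6% of the class, was at 1312, 1109.9 and 1156 counts in shHBO1 against 1261, 1243 and 1042 in shCTRL. Its values interleaved, and its interval was the narrowest of the 38, with a log2 fold change of 0.01 (SE 0.11, 95% confidence interval -0.24 to 0.27). H2BC21 was at 289, 244 and 153 counts in shHBO1 against 229.5, 232 and 177 in shCTRL, with number 3 lowest in both groups and a log2 fold change of 0.07 (SE 0.25). H2BC20P, the pseudogene, was at 99.98, 67.2 and 101 counts in shHBO1 against 104, 90.8 and 94.4 in shCTRL, with a log2 fold change of -0.13 (SE 0.22).

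H2BC5 was at 148, 168 and 127 counts in shHBO1 against 104, 139 and 112 in shCTRL, higher in shHBO1 within each replicate number but overlapping. The estimate was a log2 fold change of 0.32 (SE 0.19, 95% confidence interval -0.12 to 0.77). H2BC5 has 2 transcript entries. NM_138720 was at 147, 115 and 124 counts in shHBO1 against 98.5, 111 and 110.1 in shCTRL. These groups did not overlap, but the share of all entries without overlap was not counted. NM_021063 was at 0.934, 53.0 and 3.86 counts in shHBO1 against 5.08, 28.1 and 2.10 in shCTRL, with number 2 the highest library in each group. How reads shared by the 2 entries were assigned is not stated, and its part in these values was not tested.

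H2BC9 was the only tested H2B gene whose groups did not overlap, at 40.2, 44.8 and 33.8 counts in shHBO1 against 47.7, 70.2 and 48.2 in shCTRL. Its estimate on the log2 scale was -0.46 (SE 0.26, interval -1.07 to 0.15; adjusted p = 1 by limma). The remaining 6 tested H2B genes ran from -0.65 for H2BC13 to 0.75 for H2BC18 and overlapped between the groups.

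**Figure D2:**
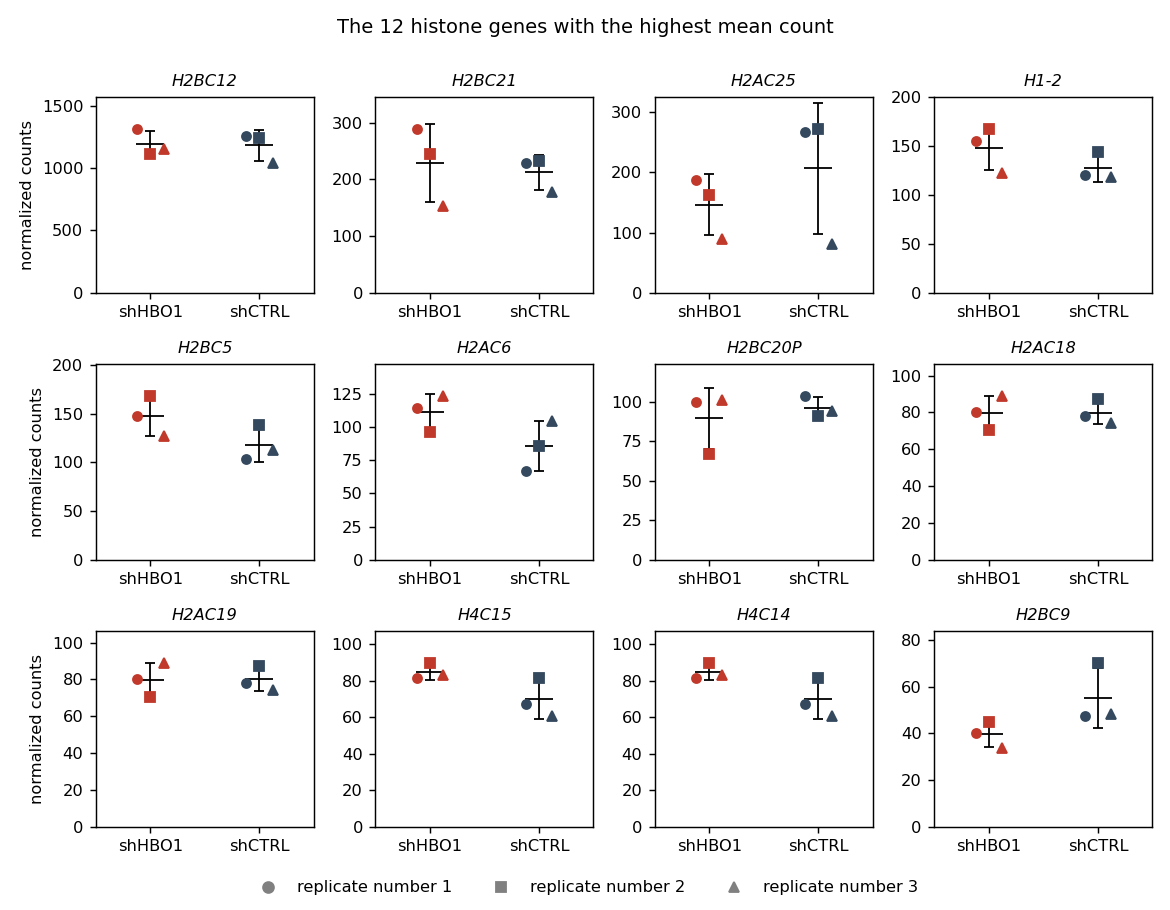
Normalized counts (y axis, from 0) in each library for the 12 histone genes with the highest mean count, shHBO1 left of shCTRL in each panel. Points are libraries, with a shape for each replicate number, the long bar is the mean and the whiskers are 1 SD (n = 3). H2BC12 lies between 1042 and 1312 over both groups, H2AC25 is lowest in the number 3 libraries of both, and the panels of H2AC18 with H2AC19 and of H4C14 with H4C15 are the same.

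H2A and H2B genes often stand head to head, and 11 such pairs with starts less than 1000 bases apart were found among the 64 genes with a promoter window. The starts were 194 to 248 bases apart, and for 5 pairs both genes were tested. In 4 of the 5 both estimates had the same sign. Log2 fold changes were 0.37 for H2BC11 and 0.53 for H2AC11, 0.09 for H2BC4 and 0.39 for H2AC6, -0.28 for H2BC8 and -0.38 for H2AC8, and -0.37 for H2AC25 and -0.54 for H2BC26. The last pair, H2BC21 and H2AC20, had 0.07 and -0.09. None of the 10 genes passed the test.

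Histones H3 and H4 form the core tetramer of the nucleosome and carry the lysines that HBO1 acetylates. The 13 H3 genes summed to 125, 146 and 119.7 normalized counts in shHBO1 libraries, against 132, 177 and 123 in shCTRL libraries, or 130 ± 13.7 against 144 ± 29.04 (SD, n = 3 each). The ratio was 0.904, with 0.948, 0.823 and 0.9752 within replicate numbers, and the groups overlapped. The class was spread thinly, since H3C8 held 18.7% of it. H3C8 was at 19.6, 22.4 and 32.8 counts in shHBO1 against 18.3, 30.0 and 30.4 in shCTRL, with a log2 fold change of -0.07 (SE 0.35).

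H3C13 was at 0.934, 9.16 and 23.2 counts in shHBO1 against 19.3, 23.4 and 20.97 in shCTRL. The shHBO1 values alone were spread widely, and the log2 fold change of -1.51 (SE 0.84, 95% confidence interval -3.46 to 0.45) had an unadjusted p of 0.113 in limma, and of 0.0499952 with the block. Of its 50-base windows, 37.8% also stood in another histone gene, H3C15. H3C10 was at 11.2, 16.3 and 6.75 counts in shHBO1 against 16.2, 26.2 and 11.5 in shCTRL, lower in shHBO1 within each replicate number but overlapping, with a log2 fold change of -0.62 (SE 0.47). H3C1 went the other way within each number, at 15.0, 22.4 and 9.65 counts in shHBO1 against 9.14, 11.2 and 3.15 in shCTRL, also overlapping, with a log2 fold change of 0.98 (SE 0.55).

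Both tested H3 genes whose groups did not overlap were at about 10 counts. H3C2 was at 6.54, 9.16 and 5.79 counts in shHBO1 against 10.2, 14.05 and 15.7 in shCTRL, with a log2 fold change of -0.81 (SE 0.41; limma adjusted p = 1). H3C3 was at 18.7, 11.2 and 12.5 counts in shHBO1 against 11.2, 9.37 and 7.34 in shCTRL, with a log2 fold change of 0.54 (SE 0.40; limma adjusted p = 1). The 2 thus stood on opposite sides of 0. H3C14 and H3C15 had the same values in all 6 libraries and averaged under 10 counts.

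The 15 H4 genes summed to 281, 280.0 and 262 normalized counts in shHBO1 libraries, against 222, 271 and 245 in shCTRL libraries, or 274 ± 11.1 against 246 ± 24.1 (SD, n = 3 each). The ratio was 1.11, with 1.26, 1.03 and 1.07 within replicate numbers. Each pair was thus above 1, but the groups overlapped, since the highest shCTRL library lay above the lowest shHBO1 library. H4C14, with 29.7% of the class, had the same values as H4C15 in all 6 libraries, at 81.3, 89.6 and 83.0 counts in shHBO1 against 67.0, 81.5 and 60.8 in shCTRL. The highest shCTRL value lay within the shHBO1 range by a narrow margin. The sums, shares and gene counts given here include both genes of each identical pair. With one of each pair left out, the H4 sums averaged 189.6 ± 10.7 in shHBO1 and 176 ± 18.3 in shCTRL (SD, n = 3 each), a ratio of 1.08, and the H2A sums averaged 485 ± 68.2 in shHBO1 and 531 ± 127 in shCTRL, a ratio of 0.913. For H4C14, as for H4C15, the single-gene log2 fold change was 0.28 (SE 0.20), with an interval of -0.18 to 0.75. Of the 50-base windows of H4C14, 100% also stood in H4C15.

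H4C3 was the single histone gene with an unadjusted p under 0.05 in the fit without the block. It was at 23.4, 20.4 and 10.6 counts in shHBO1 against 4.06, 10.3 and 7.34 in shCTRL, or 18.1 ± 6.66 against 7.24 ± 3.12 (SD, n = 3 each). The groups did not overlap, by the narrow margin between 10.6 and 10.3. On the log2 scale it was higher by 1.22 (SE 0.49, interval 0.08 to 2.36), with an unadjusted p of 0.0384 and an adjusted p of 1 in limma, and an adjusted p of 0.419 with the block. It therefore failed the correction.

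H4C11 and H4C12 are near-identical copies. Every 50-base window of the H4C12 transcript also stood in H4C11, and 81.2% of those of H4C11 stood in H4C12. H4C12 was at 41.1, 19.3 and 0 counts in shHBO1 against 35.5, 0 and 0 in shCTRL. H4C11 was at 3.74, 1.02 and 36.7 counts in shHBO1 against 2.03, 24.3 and 35.7 in shCTRL. In each library one of the pair held nearly all of the counts. The 2 together were at 44.9, 20.4 and 36.7 counts in shHBO1 against 37.6, 24.3 and 35.7 in shCTRL, or 34.0 ± 12.5 against 32.5 ± 7.15 (SD, n = 3 each). Their separate log2 fold changes, 1.52 for H4C12 (SE 1.78) and -0.99 for H4C11 (SE 1.27), have the 2 largest SEs among the tested histone genes and opposite signs. How reads shared by the 2 genes were assigned is not stated, and its part in these values was not tested.

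**Figure D3:**
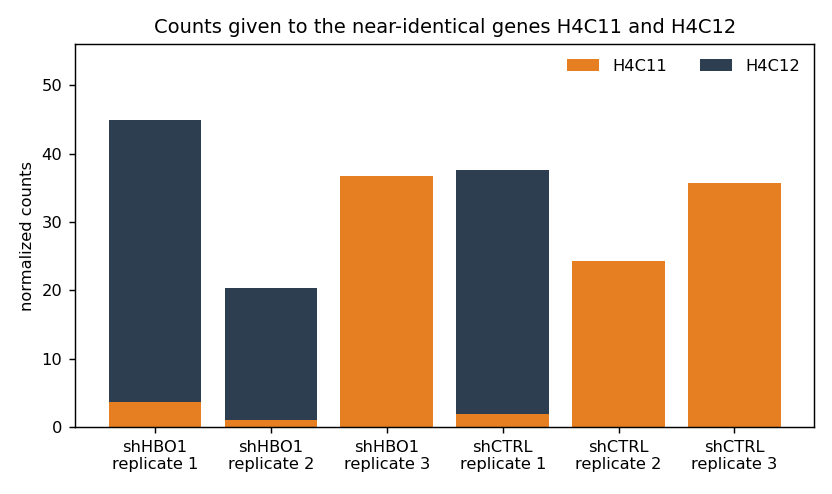
Normalized counts given to H4C11 and H4C12 in each of the 6 libraries, as stacked bars from 0, shHBO1 left of shCTRL. The split between the 2 genes switches from library to library, while the total stays between 20.4 and 44.9.

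Over all classes, the groups did not overlap for 2 tested genes that were higher in shHBO1, H4C3 and H3C3, against 4.49% of all tested genes. They did not overlap for 2 that were lower, H3C2 and H2BC9, against 4.44% of all tested genes. Both counts of 2 in 38 are close to the background shares. Below the mean of 10, the groups of H2AC4, H2BC15, H3C11 and H4C2 did not overlap, each lower in shHBO1, at 1.87 to 2.04, 5.79 to 6.54, 0.934 to 3.06 and 0 to 2.04 counts against 3.15 to 9.37, 10.3 to 12.6, 4.20 to 7.11 and 5.08 to 10.3 in shCTRL. These 4 of 27 were not tested, and some of the values stand for 1 to 3 reads. Among all genes averaging above 0 and under 10 counts, 3.23% did not overlap and were lower, and 2.75% did not overlap and were higher. By class, the tested genes had medians of 0.33 for 4 H1 genes, -0.05 for 8 H2A, 0.01 for 11 H2B, -0.07 for 7 H3 and 0.28 for 8 H4 genes, in log2 fold change. With one of each identical pair left out, 36 genes remain, 19 above and 17 below 0, and the H2A median is -0.09 over 7 genes.

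**Figure D4:**
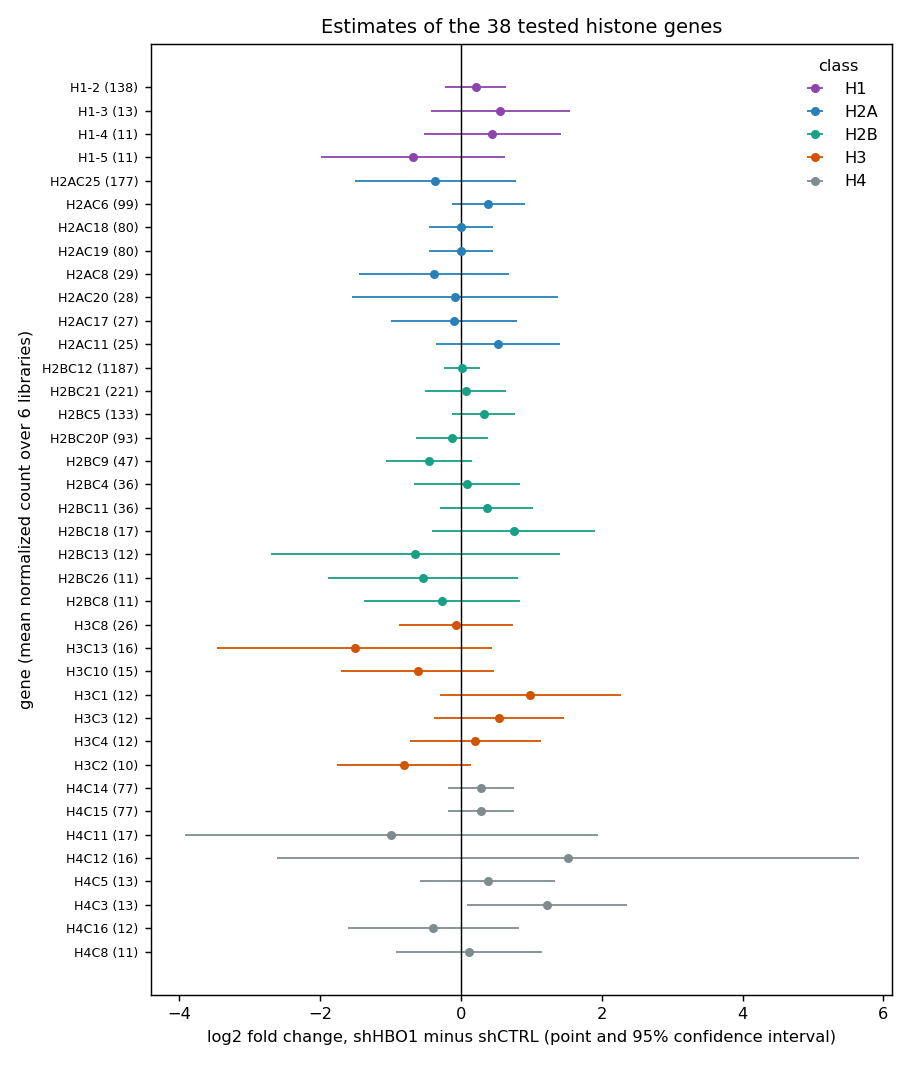
Log2 fold change of shHBO1 minus shCTRL (x axis) with its 95% confidence interval for the 38 tested histone genes, in the order of class and then of mean count, which stands in brackets. The intervals come from the fit without the block. Only the interval of H4C3 lies to one side of 0, and the narrowest interval is that of H2BC12 and the widest that of H4C12.

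The factors that make these mRNAs did not move past the threshold either. Of 26 genes for histone transcription and 3′ end processing, 25 were tested. With or without the block, 0 were called higher or lower, at a median log2 fold change of -0.01. Over all tested genes, 0% were called higher and 0.00659% lower, or 0.0395% and 0.0857% with the block. With so few genes called, 0 in this list or in those below is near the background. RNU7-1, the U7 RNA gene, was at 0 in every library. SLBP, which binds the stem-loop, was at 10562, 11124 and 11072 counts in shHBO1 against 10412, 11065 and 12150.3 in shCTRL, with a log2 fold change of -0.04 (SE 0.08). NPAT, the transcription organizer, was at 1069, 1014 and 948 counts in shHBO1 against 972, 1017 and 890.3 in shCTRL, with a log2 fold change of 0.07 (SE 0.10). The 4 genes with the smallest p were CPSF3, the endonuclease that cuts the histone pre-mRNA, at -0.13 (SE 0.06), POU2F1 at 0.19 (SE 0.11), FUBP3 at 0.12 (SE 0.08) and GON4L at 0.13 (SE 0.09). CPSF3 was at 4253, 4102 and 4139.8 counts in shHBO1 against 4402, 4627 and 4636 in shCTRL, and these groups did not overlap. Of the 25 tested genes, 2 did not overlap and were lower, CPSF3 and SYMPK, against 4.44% of all tested genes.

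The replication-independent variants replace the canonical histones outside S phase, and most of their mRNAs are polyadenylated. Of 16 with values, 12 were tested and 0 were called, at a median log2 fold change of 0.001. H3-3A was at 6617, 7304 and 6053 counts in shHBO1 against 6965, 6844 and 6127 in shCTRL, with a log2 fold change of 0.001 (SE 0.09). H3-3B was at 28709.6, 31869 and 27714 counts in shHBO1 against 28882, 31044 and 28211 in shCTRL, with a log2 fold change of 0.001 (SE 0.08). H2AZ1 had 0.03 (SE 0.06), H2AX had -0.09 (SE 0.07), and the linker variant H1-10 had -0.08 (SE 0.15). H2AJ, named after its values were seen, was at 2563, 2393 and 2219 counts in shHBO1 against 3269, 2933 and 2574 in shCTRL, lower in every library. It was the only 1 of the 12 tested variants whose groups did not overlap, against 4.44% of all tested genes lower. Its log2 fold change was -0.29 (SE 0.11; limma adjusted p = 1, and 0.162 with the block).

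Histone chaperones and importins carry histone proteins, some of them to the replication fork. All 26 were tested, 0 were called, and the median log2 fold change was -0.004. ASF1B, an H3-H4 chaperone of dividing cells, was at 5202, 5250.3 and 5538 counts in shHBO1 against 5704, 5853 and 6144 in shCTRL, lower in every shHBO1 library, with a log2 fold change of -0.15 (SE 0.07; limma adjusted p = 1). RBBP4, a subunit of the CAF-1 chaperone, had -0.11 (SE 0.06) and also did not overlap. These were the 2 of 26 genes whose groups did not overlap, against 4.44% of all tested genes lower. ATRX had 0.12 (SE 0.09), and SUPT16H, a FACT subunit, had -0.09 (SE 0.07).

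S-phase genes were set beside the histones because the histone mRNAs are made in that phase. Of 20 tested, 0 were called by limma with or without the block, at a median log2 fold change of -0.03. TYMS, thymidylate synthase, was at 15845, 16714 and 14866 counts in shHBO1 against 18147, 19657 and 19939 in shCTRL, lower in every shHBO1 library. It was the only 1 of the 20 whose groups did not overlap, against 4.44% of all tested genes lower. Its log2 fold change was -0.28 (SE 0.07), with an adjusted p of 1 in limma, 0.181 with the block and 0.00757 in DESeq2 with the block, a fit that called 0.975% of all genes. RRM2 had 0.17 (SE 0.15), UHRF1 had 0.11 (SE 0.10) and CDC45 had -0.11 (SE 0.08).

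**Figure D5:**
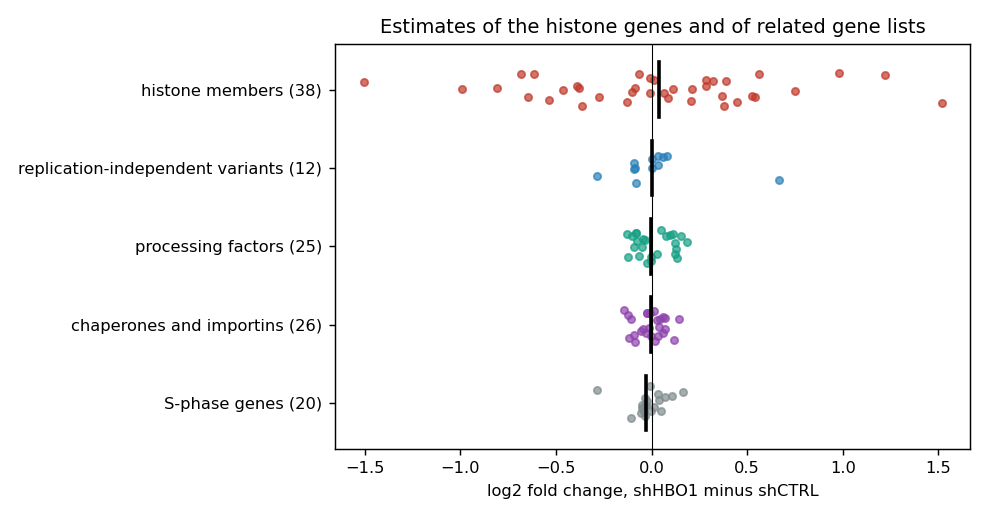
Log2 fold change of shHBO1 minus shCTRL (x axis) for each tested gene of the histone genes and 4 related lists, with the number of tested genes in brackets; bars mark medians. The histone genes spread from -1.51 to 1.52 with a median of 0.04, and the other lists, whose genes mostly have higher counts, lie closer to 0.

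Since histone mRNAs without a poly(A) tail are kept or lost with the RNA selection, other RNAs without one were set beside them. Of 12, 9 averaged at least 10 counts and 0 were called. RN7SL1, the signal recognition particle RNA, was at 715, 726 and 747 counts in shHBO1 against 719, 835 and 938 in shCTRL. RN7SK was at 225, 269 and 299 counts in shHBO1 against 152, 322 and 296 in shCTRL. RNU5A-1 was at 0 in every library. The part of RNA selection in the histone counts was not tested.

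One alternative, chosen after seeing the data, changed the calls of histone genes. With both number 3 libraries left out and the replicate block, H2AC25 at -0.62, H3C13 at -2.33 and H4C12 at 2.28 in log2 fold change passed the threshold. That fit had 1 residual degree of freedom, tested 36 histone genes and called 15.3% of all genes.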

How the data were processed

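RNA-seq was measured in 3 shHBO1 and 3 shCTRL libraries of UWB1.289 cells. For 58215 RefSeq accessions, a signal normalized by library is what the authors deposited, in 1 table. The submitters' processing notes name Bowtie 1.2.1.1, SAMtools, DESeq2 and hg19, without their roles, and the sources used here do not give how reads shared by near-identical transcripts were assigned. In each library all deposited values were multiples of 1 step, and dividing by it gave whole reads for 100% of values (tolerance 0.01 read). RefSeq (GRCh38.p14) named 57191 accessions and GENCODE release 29 named 641 more; the 383 unnamed ones, with 0.0998 to 0.109% of reads, were not used. Values were summed per gene. H1-10, which begins with the letters of the rule, was placed among the variants because its number lies outside 1 to 6.

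Because the values were normalized and not raw counts, limma-trend (limma 3.58.1, R 4.3.3) was fitted on log2(value + 1) to 15175 genes averaging 10 or more. P-values were adjusted by the Benjamini-Hochberg method over all of them, and 0.05 was the threshold. On that scale the added 1 shrinks the fold changes of low genes, but a library with very few reads can enlarge them. H4C12 averaged 20.2 counts in shHBO1 and 11.8 in shCTRL, a smaller difference than its estimate of 1.52 in log2 fold change. Class sums carry no test. edgeR 4.0.16 and DESeq2 1.42.0 were run on the recovered reads. The other alternatives were the replicate block, TMM and quantile scaling, other filters and pseudocounts, each library left out and the most abundant accession per gene. The fit was tested on simulated data, with known changes set only in genes averaging at least 50 counts. It recovered 76 of 100 changes of 1 and 99 of 100 changes of 2 in log2 fold change, with 14 false calls. The tested histone genes had a median of 21.1 normalized counts, so this does not cover most of them. The simulated libraries also held no effect of replicate number. In the data the numbers differed in 9.7% of all tested genes at an adjusted p under 0.05 (limma with the block).

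Libraries with the same replicate number deviated together (correlations of 0.326, 0.195 and 0.478 for numbers 1, 2 and 3, while shHBO1 1 with shCTRL 2 had 0.206, above the number 2 pair), so the numbers were taken to pair the libraries, from the data and not from the labels. The fit with the block called 19 of all genes. Printed SEs and intervals come from the fit without the block unless stated.

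Genes were named by rule: KAT7; the 4 histone genes per class with the highest mean; the 3 most positive and 3 most negative estimates; genes at an unadjusted p under 0.05; genes whose groups did not overlap; and set genes and the smallest p-values of the related lists. The members and lists were chosen with earlier results of these data known. The values of 1 gene named by the rule are not reported here.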

Additional observations from a re-analysis of the deposited data

How the results depend on the processing

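KAT7 was lower in shHBO1 and past the threshold under all 21 alternatives, with log2 fold changes from -2.16 to -1.89. The count of 0 histone genes called changed under only 1 alternative, given below. With no library left out, the replicate block changed no call of a histone gene. The paired limma fit gave the same median as the unpaired one, which was fixed in advance. In this balanced design the block cannot change a limma estimate. Of 90 alternative log2 ratios of class sums, all 90 lay within 1 SD of the reported ones. That SD is the pooled spread between libraries of a group. Leaving 1 library out can hardly move a ratio that far, so those alternatives are a weak check. For the tested histone genes the median estimate, 0.04 in log2 fold change, was 0.0369 to 0.126 with 1 library left out, 0.014 with no filter or a mean of at least 1, 0.065 with a mean of at least 50, 0.089 in edgeR, 0.066 in edgeR with the replicate block, 0.091 in DESeq2, and 0.20 with both number 3 libraries left out, with or without the replicate block. Among S-phase genes, 1 was called in DESeq2 with the replicate block, which called 0.975% of all genes, against 0 in limma. Another alternative, with both number 3 libraries left out and the replicate block, was chosen after seeing the data. It called 15.3% of all genes. Among the genes called were 3 of 36 tested histone genes, 4 processing and transcription factors, 3 variants, 3 chaperones and importins and 3 S-phase genes. The cause was not tested, and that fit has 1 residual degree of freedom. Of 900 alternative values for 44 named genes, 34 changed sign, in 12 genes, none of them called. Of the 71 histone genes, 33 averaged under 10 counts and were not tested. For the others the printed intervals give the range of differences left by the fit without the block, which ignores the pairing by replicate number. The block changes their width in either direction. Its SE was 0.19 against 0.49 without it for H2AC25, and 0.46 against 0.43 for H1-3.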
